A study of Bos taurus with 18 samples.

Results

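Small RNA profiles of rumen papillae were compared on forage between cows of the PHY arm (FD_PHY) and control cows (FD_CON). These are 9 of the 18 libraries of the series, chosen by sample title, with 4 libraries in FD_PHY and 5 in FD_CON. Every cow was a ruminally cannulated Holstein outside lactation and ate a diet of 100% forage at this sampling. FD_CON carries the treatment label Control and FD_PHY the label PHY. The meaning of PHY, the ages of the cows, and whether PHY was already fed at the forage sampling are not stated in the labels. The arms hold different cows, allotted at random per the design text, so each library stands for 1 cow and the spread within an arm is a spread between animals. Any difference between the arms on forage is therefore also a difference between 2 small sets of cows. Per the design text the cows were then changed to grain feeding (65% concentrate), from which the 9 other libraries come (HG_CON and HG_PHY).

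Rumen papillae are leaf-like projections of the rumen wall, in which a keratinised stratified epithelium covers a core of connective tissue, vessels and some smooth muscle. They take up the short-chain fatty acids made by microbial fermentation. miRNAs are short RNAs that guide Argonaute proteins to messenger RNAs through a seed at their 5′ end, and mostly lower the output of those messengers. Many are typical of 1 cell type, so that a biopsy's miRNA profile reflects both its mix of cells and their state. In such bulk samples fewer cells of a type and less RNA per cell cannot be told apart.

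The library files list 966 mature miRNA names, which stand for 824 miRNAs once names at the same position or for the same molecule are merged. A read was found in at least 1 forage library for 776 miRNAs and in all 9 for 440. Levels are given as CPM, read counts scaled for library depth and by TMM, a method that sets the bulk of miRNAs equal between libraries. Differences are log2 ratios of PHY to CON ± SE. edgeR's quasi-likelihood test was run on the 468 miRNAs that passed its filter on low counts, with Benjamini-Hochberg adjusted p under 0.05 as the threshold. Names without a prefix are bovine entries and hsa marks human ones.

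The libraries held 9.79 to 15.2 M reads (M, mega) counted once per miRNA in FD_CON and 6.53 to 10.9 M in FD_PHY. The means were 11.9 M ± 2.04 (SD, n = 5) and 8.34 M ± 2.17 (SD, n = 4), with an exact permutation p of 0.0476 (two-sided, adjusted p = 0.127 over 4 library measures; the smallest p that 126 arrangements allow is 0.0159). The shallower PHY libraries also showed fewer miRNAs, 550 to 576 against 566 to 591. The share of reads assigned to miRNAs was 37.2% ± 7.66 in FD_CON and 33.9% ± 7.19 in FD_PHY (exact permutation p = 0.508). FD_CON 2 stood apart from the other forage libraries. Its median distance to them, the root mean square of log2 differences over 272 miRNAs with a mean of at least 10 CPM, was 0.65 against 0.42 to 0.51 for the rest. It was the highest of the 9 libraries for 80 of the 272 miRNAs and the lowest for 47, in both cases the most of any library. PHY libraries lay closer to each other (median distance 0.40 over 6 pairs) than control libraries did (0.53 over 10 pairs, 0.49 without FD_CON 2). Pairs from different arms lay at 0.47, between these values.

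On forage no miRNA passed the test between the 2 arms, and the most abundant miRNAs were the same in both. The most abundant miRNA, miR-21-5p, made up 22.6% ± 3.98 of the reads in FD_CON and 23.9% ± 1.36 in FD_PHY. miR-143, a miRNA of smooth muscle and other cells of mesenchymal origin, followed with 15.6% ± 4.48 and 14.1% ± 1.87. The largest difference among miRNAs of at least 10 CPM was in miR-190a, at 33.04 ± 16.4 CPM in FD_CON and 7.998 ± 1.73 CPM in FD_PHY. The other recurring pattern lay in the imprinted DLK1-DIO3 cluster, where 41 of 43 tested miRNAs had a higher fitted level in PHY cows.

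edgeR called 0 of the 468 miRNAs (0% called). At an unadjusted p under 0.05 there were 22 (4.70% of those tested), 10 higher and 12 lower in PHY (2.14% and 2.56%). DESeq2 called 1 miRNA, miR-190a, and had 26 at an unadjusted p under 0.05. After the adjusted p of 0.155 for miR-190a, the next lowest was 0.929. Among the 272 miRNAs of at least 10 CPM the median size of the log2 difference was 0.15, and it exceeded 1 for miR-190a alone. The precision behind these values was moderate. For the 74 miRNAs averaging 1000 CPM or more, the 95% interval of the log2 difference reached a median of 0.31 to either side, a ratio of 1.24.

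**Figure D1:**
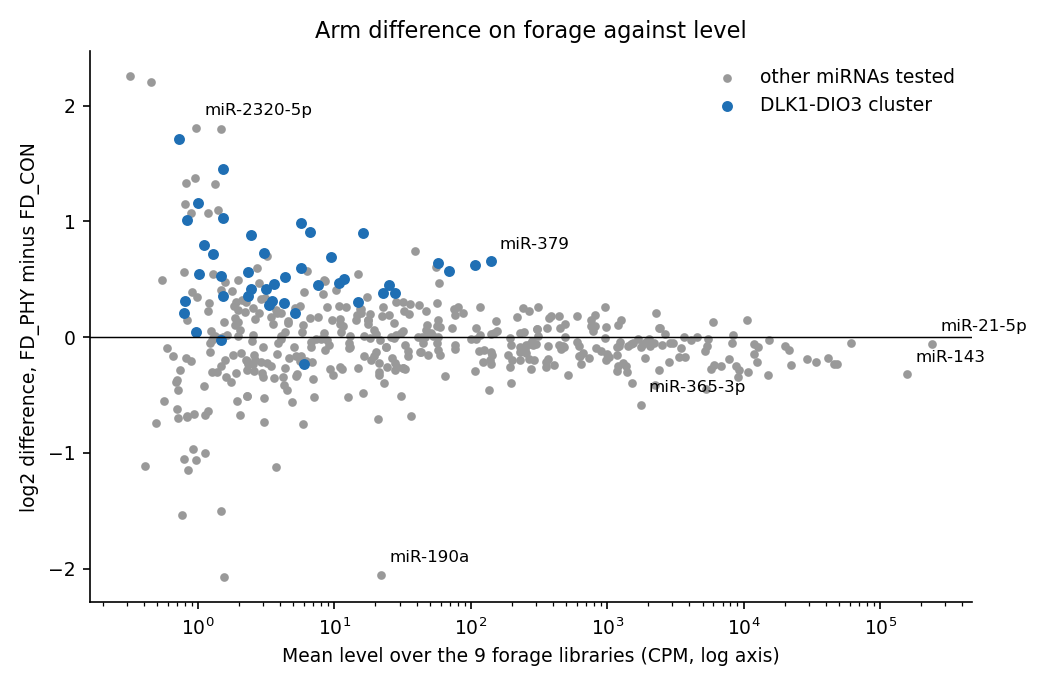
Log2 difference between FD_PHY and FD_CON (vertical axis) against the mean level over the 9 forage libraries in CPM (horizontal log axis) for each of the 468 miRNAs tested, with the 43 members of the DLK1-DIO3 cluster in blue. Abundant miRNAs lie close to 0, and 41 of the 43 cluster members lie above 0. Among miRNAs of at least 10 CPM miR-190a stands alone at -2.05, while the scarce miR-2285ag-3p lies at -2.07.

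miR-190a (chromosome 10) is known in mammals as an intronic miRNA of the talin gene TLN2. The control cows read 45.3, 23.4, 46.3, 8.86 and 41.4 CPM (FD_CON 1 to 5), and the PHY cows 8.78, 6.56, 10.1 and 6.59 CPM (FD_PHY 1 to 4). All 4 PHY libraries were low, and so was 1 control library, FD_CON 4, which lay between PHY libraries, so the arms overlapped. The log2 difference was -2.05 ± 0.48, with a 95% interval of -3.04 to -1.06 (edgeR adjusted p = 0.155). These levels rest on 88 to 531 reads per control library and 60 to 69 per PHY library.

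The call on miR-190a turned on the setting. It passed in DESeq2 (adjusted p = 0.00261), in edgeR with no filter (0.00764) and without FD_CON 4 (0.0141). Over all 24 alternatives its log2 difference stayed between -2.29 and -1.72, while the adjusted p ran from 0.00261 to 0.953. On grain the controls read 32.6, 12.9, 38.2, 8.88 and 42.2 CPM and the PHY cows 7.48, 12.5, 9.25 and 4.59 CPM. Library 4 of the controls was again as low as the PHY libraries, and the log2 difference on grain was -1.68 ± 0.47 (edgeR adjusted p = 0.286). The test of the change between diets, which did not pair the libraries of a cow, gave 0.37 ± 0.64 (edgeR adjusted p = 0.997). On both diets the controls thus spread widely while the PHY libraries stayed at 12.5 CPM or below.

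**Figure D2:**
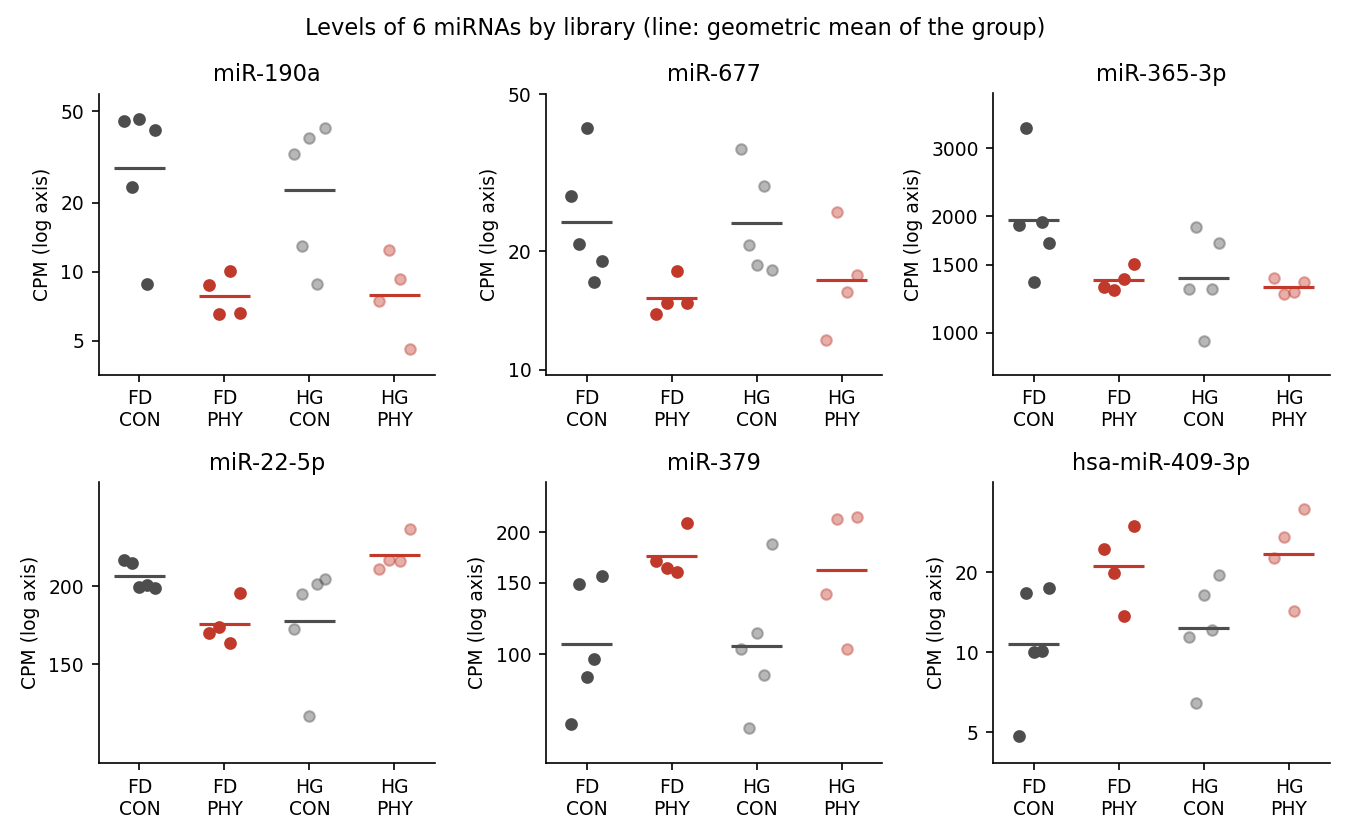
Level of 6 miRNAs in every library in CPM (vertical log axes), with points for libraries and a line for the geometric mean of FD_CON (5 libraries), FD_PHY (4), HG_CON (5) and HG_PHY (4); FD is forage, HG is grain and PHY libraries are red. miR-190a was low in all PHY libraries and in control 4 on both diets, miR-379 was higher in all 4 PHY libraries on forage, and miR-22-5p was lower in PHY on forage and higher on grain.

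The other miRNAs with the lowest p among those lower in PHY were miR-365-3p, miR-677, miR-30b-5p, miR-708, miR-29a, miR-27b, let-7g, miR-328, miR-200c, miR-145 and miR-374b, and none passed. miR-365-3p, made from clusters it shares with miR-193 miRNAs, read 1897, 3391, 1357, 1931 and 1710 CPM in the controls and 1311, 1288, 1375 and 1508 CPM in PHY. The controls' highest value was that of FD_CON 2, and their lowest fell among the PHY values. The log2 difference was -0.59 ± 0.21 (edgeR adjusted p = 0.929) and -0.34 without FD_CON 2. miR-677 read 27.5, 20.9, 41.01, 16.7 and 18.9 CPM in the controls against 13.9, 14.8, 17.8 and 14.8 CPM in PHY (-0.71 ± 0.28, and -0.44 without FD_CON 3). Of the 4 PHY libraries, 3 lay below every control, and FD_PHY 3 lay above 1 of them.

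For several of these miRNAs 1 library decided the size. miR-30b-5p, a miRNA of the miR-30 family found in many epithelia, read 2314, 4178, 1931, 2208 and 1970 CPM in the controls and 1799, 1915, 1758 and 2100 CPM in PHY. The value of FD_CON 2 was far above the others, and the log2 difference went from -0.41 ± 0.18 to -0.16 without it. Leaving out FD_CON 2 also moved miR-328 from -0.68 to -0.18, miR-145 from -0.45 to -0.14 and miR-374b from -0.30 to -0.17. miR-200c, at -0.34 ± 0.16 with all libraries, stood at -0.24 without it.

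The abundant members of this set differed by smaller amounts. miR-29a, known for targeting collagen transcripts, read 9402, 11642, 10040, 10892 and 8507 CPM in the controls and 8351, 9438, 8149 and 7209 CPM in PHY. Only FD_PHY 2 reached into the control range. The log2 difference was -0.28 ± 0.13 on forage and -0.34 ± 0.13 on grain, where 5 of 9 tested members of its family were above 0 (median 0.06). miR-27b, a regulator of lipid and vascular genes, stood at 48935 ± 4961 CPM in FD_CON and 41568 ± 4805 CPM in FD_PHY (-0.24 ± 0.11). let-7g, a member of the let-7 family that represses growth genes, read 22979, 25847, 24688, 24406 and 21539 CPM in the controls and 18870, 19098, 18595 and 24182 CPM in PHY (-0.24 ± 0.11). Its PHY values were low in 3 cows, while FD_PHY 4 lay among the controls. miR-708 stood at 220 ± 18.6 CPM in FD_CON and 168 ± 35.7 CPM in FD_PHY (-0.39 ± 0.17), with FD_PHY 4 the lowest at 122 CPM, and a difference of -0.25 without it.

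Among the miRNAs higher in PHY, the lowest p-values were those of hsa-miR-409-3p, miR-379, miR-744, miR-411a, miR-454, miR-127, miR-7857-3p, miR-183, miR-2904, miR-92b, miR-6123 and miR-7, and none passed. hsa-miR-409-3p, miR-379, miR-411a and miR-127 belong to the DLK1-DIO3 cluster. Outside it, miR-744 stood at 12.3 ± 3.74 CPM in FD_CON and 17.95 ± 3.58 CPM in FD_PHY (0.55 ± 0.26), and miR-454 at 74.3 ± 12.2 and 89.3 ± 7.48 CPM (0.26 ± 0.14). Both were above the control mean in 4 of 4 PHY libraries, with overlap between the arms. miR-183, of the sensory and epithelial miR-183 cluster, stood at 284 ± 45.5 and 340 ± 56.4 CPM (0.26 ± 0.15). miR-7857-3p stood at 45.4 ± 20.6 and 69.1 ± 7.80 CPM (0.61 ± 0.36), miR-2904 at 30.2 ± 18.8 and 50.7 ± 25.7 CPM (0.75 ± 0.45) and miR-6123 at 25.8 ± 5.65 and 31.9 ± 6.87 CPM (0.31 ± 0.20). miR-2904 was at 1.20 without FD_CON 5 and at 0.39 without FD_PHY 3, miR-6123 at 0.19 without FD_CON 2 and miR-183 at 0.16 without FD_PHY 4. miR-92b had a log2 difference of 0.24 ± 0.16 and miR-7 one of 0.26 ± 0.17 (0.46 without FD_CON 5).

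A count of miRNAs whose arms did not overlap at all gave 6 of 468 (1.28%), 4 higher and 2 lower in PHY (0.855% and 0.427%). Among the 272 miRNAs of at least 10 CPM there were 2 (0.735%), miR-379 and miR-22-5p. miR-22-5p, usually the minor strand of the miR-22 hairpin, read 221, 218, 199.6, 201 and 199 CPM in the controls and 168, 172, 162 and 195 CPM in PHY. The controls lay within a narrow band and every PHY cow was below it, yet the log2 difference was only -0.25 ± 0.14 (edgeR adjusted p = 0.929). The remaining 4, named here after their values were seen, had means over the 9 forage libraries below 2 CPM: miR-2320-5p, miR-584 and miR-191b were higher in PHY and miR-2285ag-3p was lower. miR-2320-5p rested on 0 to 9 reads per control library and 9 to 20 per PHY library.

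The DLK1-DIO3 region is an imprinted domain whose miRNAs are made, in mammals, from the maternally inherited chromosome as parts of long noncoding transcripts. Its miRNAs are plentiful in placenta, brain and mesenchymal tissue and scarce in most adult epithelia. Of 61 members found in the files 43 were tested, all placed on chromosome 21. On forage 41 of them were above 0 (95.3%), against 208 of all 468 miRNAs (44.4%), with a median log2 difference of 0.52 against -0.04 over all miRNAs (0.68 against 0.12 with library totals). edgeR called 0 of the 43, and 5 had an unadjusted p under 0.05, all higher, against 2.14% of all miRNAs tested that were higher at that p. The members lie in 1 domain, so they do not count as independent.

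The summed level of the 43 was 276, 766, 371, 430 and 619 CPM in FD_CON 1 to 5 and 682, 692, 650 and 919 CPM in FD_PHY 1 to 4. The PHY cows were all at 650 CPM or above, but FD_CON 2 exceeded 3 of them, so the arms overlapped. FD_PHY 4 was the highest forage library for 22 of the 43 members and FD_CON 1 the lowest for 21. Without FD_CON 1 the median was 0.37 and without FD_PHY 4 it was 0.46, while without FD_CON 2 it was 0.75 with 43 of 43 above 0. The arm with the higher levels was also the shallower one, and the part of depth was not tested. On grain 40 of the 43 were above 0 (against 50.2% of all miRNAs), with a median of 0.53.

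**Figure D3:**
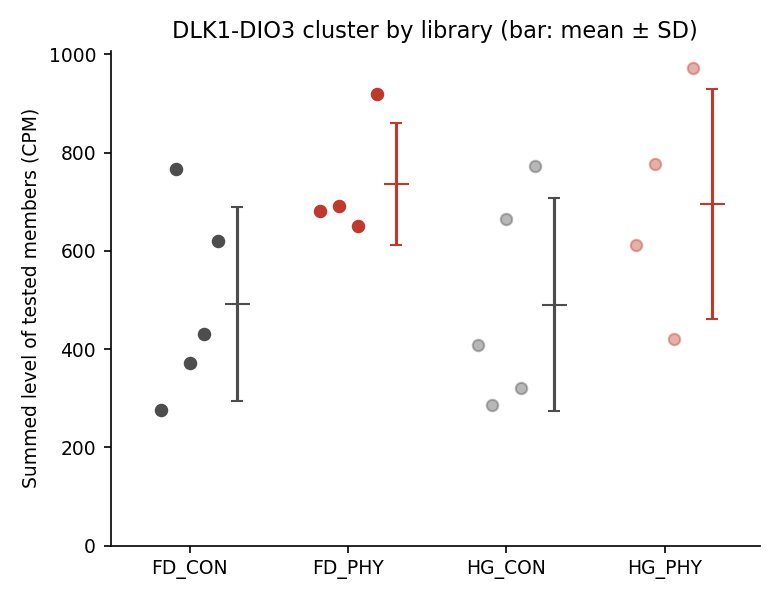
Summed level in CPM of the 43 tested members of the DLK1-DIO3 cluster in every library (points) with the mean ± SD of FD_CON (5 libraries), FD_PHY (4), HG_CON (5) and HG_PHY (4). On forage the PHY libraries lie between 650 and 919 CPM and the controls between 276 and 766 CPM.

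miR-379, the most abundant of them, read 67.2, 149, 87.8, 97.1 and 156 CPM in the controls and 170, 163, 159 and 211 CPM in PHY. The 4 PHY values lay above all controls, although FD_CON 5 came within a few CPM of FD_PHY 3. The log2 difference was 0.66 ± 0.28 (95% interval 0.07 to 1.25, edgeR adjusted p = 0.929). miR-411a, from the same stretch, stood at 86.6 ± 33.4 CPM in FD_CON and 134 ± 17.0 CPM in FD_PHY (0.63 ± 0.31). hsa-miR-409-3p read 4.86, 16.7, 9.995, 10.1 and 17.4 CPM in the controls and 24.4, 19.9, 13.7 and 29.9 CPM in PHY (0.90 ± 0.35). Here 3 PHY libraries exceeded every control and FD_PHY 3 did not.

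miR-127, which lies antisense to the RTL1 gene, stood at 46.3 ± 25.2 CPM in FD_CON and 72.1 ± 10.8 CPM in FD_PHY (0.64 ± 0.38, and 1.01 without FD_CON 2). miR-382 stood at 4.79 ± 1.61 and 8.99 ± 2.25 CPM (0.91 ± 0.34). The scarce hsa-miR-412-5p stood at 0.84 ± 0.81 and 2.36 ± 0.54 CPM. It had 9, 27, 0, 7 and 6 reads in the controls and 16, 26, 11 and 29 in PHY. The arms overlapped, with FD_CON 2 at 2.18 CPM above FD_PHY 3 at 1.60 CPM. miR-411c-5p (-0.23 ± 0.60) and miR-376c (-0.03 ± 0.87) were the members below 0, with means over the 9 forage libraries of 5.95 and 1.48 CPM. The other tested members lay between 0.04 and 1.72, among them hsa-miR-376c-3p (0.47 ± 0.39) and miR-411c-3p (1.72 ± 0.81).

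Among the lists for cell types, the epithelial ones show the tissue. miR-205, typical of stratified epithelia, stood at 30505 ± 3555 CPM in FD_CON and 26813 ± 2124 CPM in FD_PHY, a log2 difference of -0.19 ± 0.12 (95% interval -0.44 to 0.07). The stratified epithelium list had 4 of 5 tested members below 0 (median -0.16), with miR-34c at -0.55 ± 0.39 and miR-149-5p at -0.16 ± 0.25. The scarce miR-34c rested on 14 to 31 reads per control library and 11 to 15 per PHY library. The miR-200 family, which holds epithelial identity by repressing ZEB transcription factors, had 4 of 5 below 0 (median -0.25), with miR-200b at -0.28 ± 0.16 and miR-200a at -0.25 ± 0.15. With reads scaled by library totals alone the stratified epithelium median was 0.01 and that of the miR-200 family -0.10. No member of either list was called (0% over all miRNAs), and miR-200c was the only 1 with an unadjusted p under 0.05 (4.70% over all miRNAs).

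Scaling matters for these small differences. With library totals in place of TMM, the median over all 468 miRNAs went from -0.04 to 0.12 and the number above 0 from 208 to 311. At an unadjusted p under 0.05 there were then 26 higher and 3 lower, against 10 and 12 with TMM, and again 0 passed. Among the 74 miRNAs of at least 1000 CPM, 64 were below 0 under TMM. List medians near that shift have no fixed sign, so the medians with library totals are given too. Single libraries also weigh on small differences: of the 87 miRNAs picked by the naming rule, 58 had a log2 difference that moved by more than 1.5 times when 1 of the 9 libraries was left out.

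The muscle list had 6 of 6 tested members below 0 (median -0.26, and -0.09 with library totals, where 2 were above 0). miR-143 read 133204, 286183, 159075, 145965 and 139255 CPM in the controls and 125146, 136721, 160422 and 130680 CPM in PHY. FD_CON 2 stood alone at the top, and the remaining values of the arms overlapped. The log2 difference was -0.32 ± 0.18 (95% interval -0.69 to 0.04) and -0.07 without FD_CON 2. hsa-miR-145-3p, from the same hairpin as miR-145, went from -0.40 ± 0.22 to -0.12 without it, and the list's median to -0.09. The summed level of the list was 139986 to 301073 CPM in FD_CON and 130455 to 167631 CPM in FD_PHY. The share of muscle in each biopsy was not measured, and its part in these differences was not tested.

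The fibroblast list had 8 of 8 below 0 with TMM (median -0.12) and 4 of 8 with library totals (0.02), led by hsa-miR-214-5p at -0.52 ± 0.26, miR-199a-3p at -0.24 ± 0.16 and miR-199b at -0.23 ± 0.17. Leukocyte miRNAs were above 0 in 7 of 8 (median 0.18, 0.31 with library totals and 0.09 without FD_CON 2). miR-142-5p stood at 2139 ± 177 CPM in FD_CON and 2475 ± 380 CPM in FD_PHY (0.21 ± 0.15), miR-142-3p at 0.19 ± 0.19 and miR-146b at 0.18 ± 0.19. Without FD_PHY 2 these were 0.13, 0.026 and 0.057. The summed leukocyte level was 5838 to 7283 CPM in FD_CON and 5842 to 8508 CPM in FD_PHY, so the ranges overlapped widely. Endothelial miRNAs had 4 of 6 below 0 (median -0.05, 0.08 with library totals), with miR-126-5p at -0.29 ± 0.15 (-0.14 without FD_CON 2), miR-218 at -0.27 ± 0.18 and miR-424-3p at 0.47 ± 0.43.

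For markers of red blood cells a difference was not detectable, with wide intervals. The erythroid miR-451 stood at 8307 ± 2737 CPM in FD_CON and 8404 ± 2473 CPM in FD_PHY (0.02 ± 0.31, 95% interval -0.63 to 0.66), miR-486 at 0.10 ± 0.29 and miR-144 at -0.07 ± 0.34, so that 2 of 3 were above 0 (median 0.02, -0.12 without FD_CON 2). With library totals 3 of 3 were above 0 (median 0.15). Of the columnar gut list, 3 of 6 were above 0 (median 0.05, 0.20 with library totals), namely miR-375 at 0.23 ± 0.29, miR-122 at 0.21 ± 0.31 and miR-215 at 0.15 ± 0.22. The other 3, miR-192, miR-194 and hsa-miR-194-5p, were below 0, the lowest at -0.07. The list's summed level was only 1129 to 1175 CPM in FD_CON and 1065 to 1215 CPM in FD_PHY. The neural list had 8 of 9 above 0 (median 0.19, 0.32 with library totals and 0.11 without FD_CON 2), with miR-9-3p at 0.26 ± 0.24 and miR-219 at 0.55 ± 0.71. With 1 library left out miR-9-3p ranged from 0.068 (without FD_PHY 4) to 0.41 (without FD_CON 4) and miR-219 from 0.24 (without FD_PHY 3) to 1.13 (without FD_CON 1). No member of the muscle, fibroblast, leukocyte, endothelial, erythroid, columnar gut or neural lists had an unadjusted p under 0.05 (4.70% over all miRNAs).

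**Figure D4:**
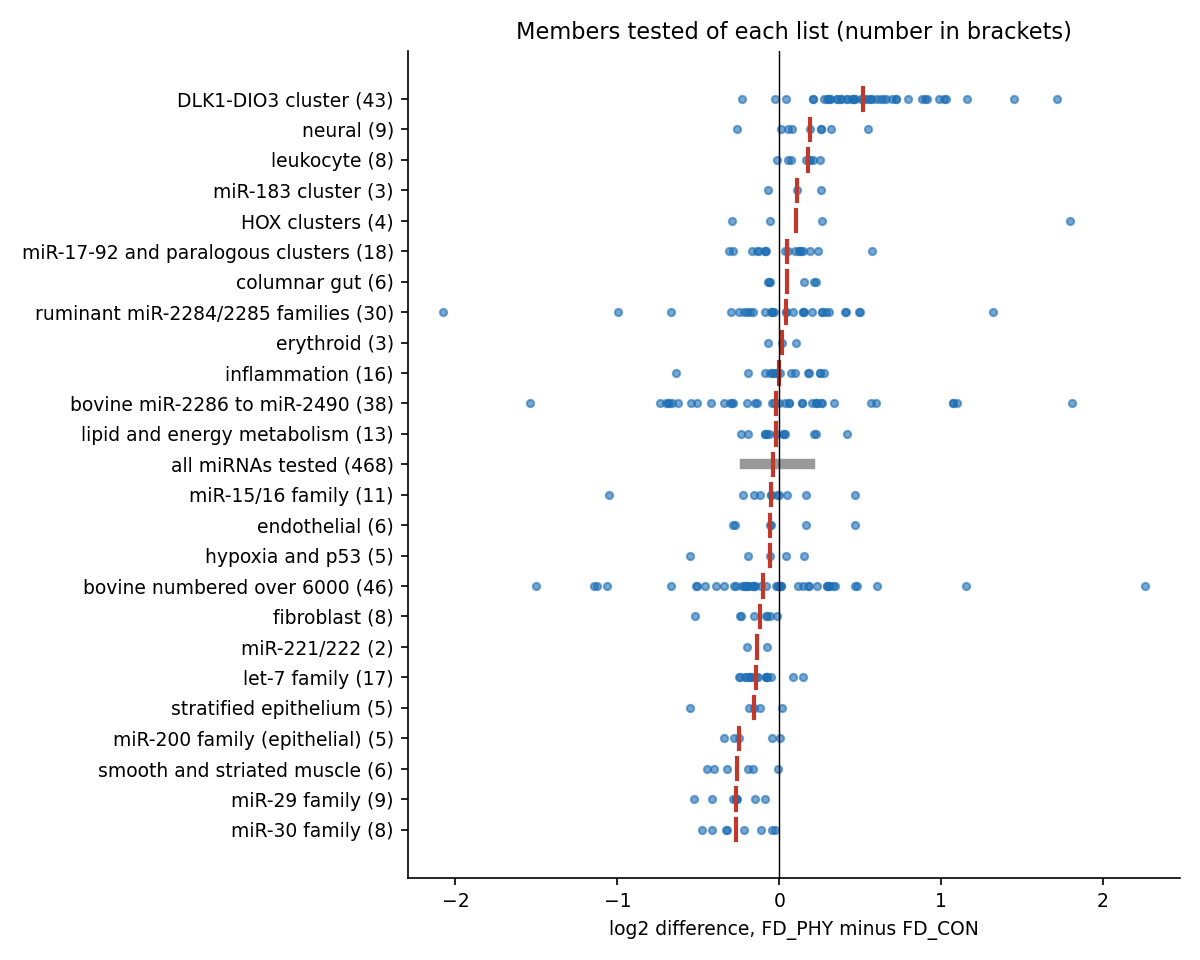
Log2 difference between FD_PHY and FD_CON for the tested members of each list (blue points) with the list's median (red) and, for all 468 miRNAs, the middle 50% (grey bar). The DLK1-DIO3 cluster has the highest median at 0.52; the miR-30, miR-29 and muscle lists have the lowest, -0.27 to -0.26, which stand at -0.11 to -0.09 with library totals, where small medians of other lists change sign.

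Of the families, miR-29 had 9 of 9 tested members below 0 (median -0.27) and miR-30 had 8 of 8 (median -0.27). With library totals these were 7 of 9 (median -0.11) and 5 of 8 (-0.10), and without FD_CON 2 the medians were -0.13 and -0.08. In the miR-29 family miR-29c was at -0.26 ± 0.17 and hsa-miR-29b-1-5p at -0.53 ± 0.40. In the miR-30 family miR-30c was at -0.22 ± 0.16 and hsa-miR-30c-2-3p at -0.48 ± 0.39, and without FD_CON 2 they were at -0.094 and -0.12. miR-29c was at -0.13 without FD_CON 2 and hsa-miR-29b-1-5p at -0.26 without FD_PHY 2. Members of these families can share reads, because the deposited raw counts enter a multiply matching read under each name. Their counts of members take in both strands of some hairpins. The let-7 family had 15 of 17 below 0 (median -0.14, 0.00 with library totals and -0.04 without FD_CON 2), with let-7i at -0.19 ± 0.13 and let-7f at -0.21 ± 0.17. Each of the 3 families had 1 member with an unadjusted p under 0.05, miR-29a, miR-30b-5p and let-7g, that is 1 of 9, 1 of 8 and 1 of 17 against 4.70% of all miRNAs tested.

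The miR-17-92 and paralogous clusters, tied to cell proliferation, had 10 of 18 above 0 (median 0.05, 0.20 with library totals and -0.02 without FD_CON 2), with miR-363 at 0.57 ± 0.31 and miR-25 at 0.13 ± 0.12. The miR-15/16 family, which restrains the cell cycle, had 8 of 11 below 0 (median -0.05, 0.09 with library totals), with hsa-miR-15a-3p at -1.05 ± 0.70 and miR-195 at -0.22 ± 0.15. That count takes in both strands of some hairpins, as hsa-miR-15a-3p beside hsa-miR-15a-5p. hsa-miR-15a-3p rested on 2 to 19 reads per control library and 0 to 10 per PHY library. It was at -0.67 without FD_PHY 1 and at -1.63 without FD_PHY 4. miR-222 and miR-221 were at -0.20 ± 0.17 and -0.08 ± 0.18 (median -0.14, 0.00 with library totals). The miR-183 cluster had 2 of 3 above 0 (median 0.11, 0.26 with library totals), where miR-182 stood at 0.11 ± 0.14 and miR-96 was at -0.07 ± 0.17.

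The inflammation list had 8 of 16 above 0 (median 0.00, 0.15 with library totals), with miR-181b at -0.20 ± 0.14, miR-147 at 0.17 ± 0.17 and miR-21-3p at 0.27 ± 0.27. The lipid and energy list had 6 of 13 above 0 (median -0.02, 0.12 with library totals), with miR-27b first, miR-34a at -0.19 ± 0.16 and miR-370 at 0.42 ± 0.54. Of the list for hypoxia and p53, 2 of 5 were above 0 (median -0.06, 0.09 with library totals). The HOX-cluster list had 2 of 4 above 0 (median 0.10, 0.24 with library totals), with miR-10a at -0.29 ± 0.17 (-0.16 without FD_CON 2), miR-196a at 0.26 ± 0.33 and the scarce miR-196b at 1.80 ± 0.79. For miR-196b the library FD_PHY 3 stood at 6.86 CPM, and the log2 difference without it was 0.52.

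Bovine entries with few counterparts elsewhere showed no common direction. The miR-2284 and miR-2285 families, which are numerous in ruminants, had 16 of 30 tested members above 0 (median 0.04, 0.20 with library totals) out of 92 listed. miR-2285ag-3p stood at 2.36 ± 0.95 CPM in FD_CON and 0.54 ± 0.45 CPM in FD_PHY, miR-2285i at 1.32 ± 0.60 on the log2 scale and miR-2285g at 0.41 ± 0.28. The bovine entries that follow them in number had 18 of 38 above 0 (median -0.02, 0.13 with library totals) out of 143 listed, with miR-2320-5p at 1.81 ± 0.62, miR-2474 at -1.54 ± 0.73 and miR-2368-3p at 1.10 ± 0.55. The bovine entries with the highest numbers had 19 of 46 above 0 (median -0.10, 0.04 with library totals) out of 132 listed, with miR-12008 at 2.26 ± 1.08, miR-10174-5p at -0.51 ± 0.29 and miR-11997 at -1.50 ± 0.86. A mean of at least 10 CPM was reached by 14 of the 30, 7 of the 38 and 13 of the 46. Far below it, miR-2285i, miR-2474, miR-2368-3p and miR-12008 had means over the 9 forage libraries of 0.32 to 1.40 CPM. miR-12008 rested on 0 to 4 reads per control library and 0 to 8 per PHY library (3.41 without FD_CON 3). For miR-11997 these were 8 to 28 and 0 to 13 reads (-2.44 without FD_PHY 3).

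The 10 most abundant miRNAs held 67.5% ± 1.20 of the reads in FD_CON and 66.8% ± 0.56 in FD_PHY (exact permutation p = 0.381). miR-21-5p read 250917, 208214, 227987, 230736 and 303553 CPM in the controls and 241063, 241412, 212182 and 246156 CPM in PHY. The PHY cows lay within the control range, and the log2 difference was -0.05 ± 0.13 (95% interval -0.32 to 0.21). miR-24-3p (-0.05 ± 0.13), miR-26a (-0.23 ± 0.16), let-7a-5p (-0.18 ± 0.20) and miR-30a-5p (-0.11 ± 0.29) also had 95% intervals that included 0. Those of miR-27b (-0.456 to -0.015) and let-7g (-0.472 to -0.014) did not include 0, though neither miRNA passed the test. miR-26a was at -0.07 without FD_CON 2, miR-30a-5p at 0.17 without it, and let-7a-5p ranged from -0.40 (without FD_PHY 4) to -0.062 (without FD_PHY 2).

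The 356 miRNAs that were not tested reached at most 2.42 CPM in any forage library, and 48 of them had no read on forage. Of these 356, miR-2475 (named after its values were seen) had reads in every PHY library, 10, 4, 5 and 7, and 0 in every control library. On grain it had reads in 3 of 5 control and 2 of 4 PHY libraries, so both arms held libraries with and without reads.

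Whether the arm difference on forage was also present on grain can be read from the other 9 libraries, which come from the same cows per the design text. On grain edgeR called 0 of 468 between the arms (32 at an unadjusted p under 0.05, 6.84%), where DESeq2 called 2 and had 33 at that unadjusted p. On grain 12 miRNAs did not overlap (2.56%). Of the 22 miRNAs with an unadjusted p under 0.05 on forage, 6 had one on grain in the same direction: miR-190a, miR-29a, miR-382, hsa-miR-409-3p, hsa-miR-412-5p and miR-379. The last 4 are DLK1-DIO3 members. Across the 272 miRNAs averaging 10 CPM or more, the forage and grain differences had a Pearson correlation of 0.40 and a Spearman correlation of 0.18. Without miR-190a and the DLK1-DIO3 members these were 0.13 and 0.07 over 260 miRNAs. miRNAs are not independent replicates, and both axes share their cows, so these are descriptions.

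**Figure D5:**
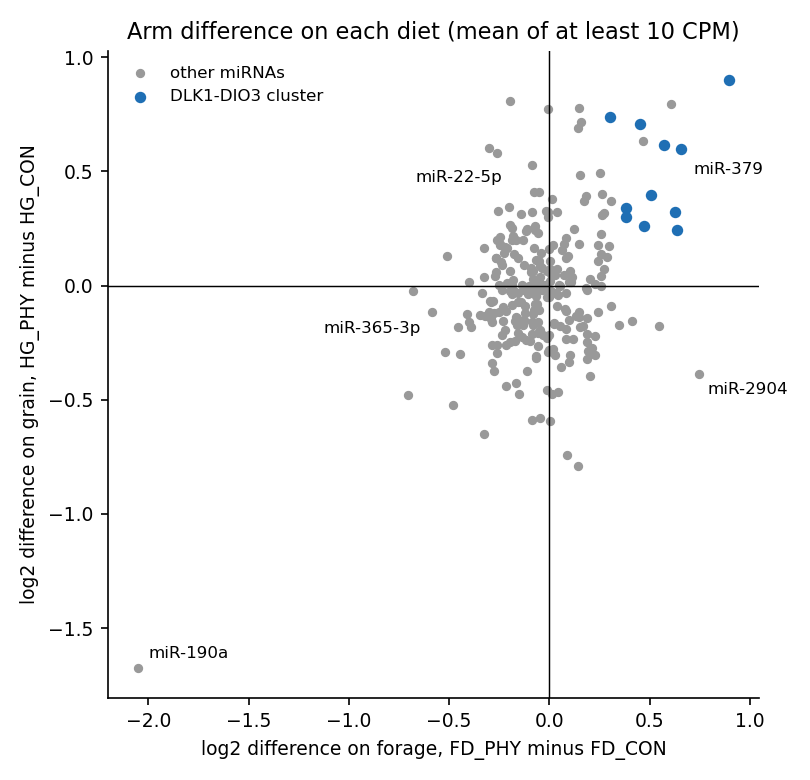
Log2 difference between PHY and CON on forage (horizontal axis) and on grain (vertical axis) for 272 miRNAs with a mean of at least 10 CPM on forage, the DLK1-DIO3 members in blue. Most points scatter around 0 on both axes, while miR-190a lies at -2.05 and -1.68 and the 11 cluster members lie above 0 on both.

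The test of the diet by arm interaction called 0 of 468 (10 at an unadjusted p under 0.05, 2.14%, with 12 by DESeq2, which also called 0). These fits had no term for the cow, although the same cows gave both diets per the design text. The arms changed order completely for 2 miRNAs. miR-22-5p, lower in all 4 PHY cows on forage, read 171, 194, 124, 201 and 205 CPM in HG_CON and 213, 220, 219 and 247 CPM in HG_PHY, where all 4 were higher (interaction 0.58 ± 0.20, edgeR adjusted p = 0.997). miR-2320-5p, higher in PHY on forage, was lower in all 4 PHY libraries on grain (interaction -3.20 ± 0.89, edgeR adjusted p = 0.849). Neither interaction passed. let-7g (0.35 ± 0.15) and miR-222 (0.54 ± 0.24) were also among the 10, both lower in PHY on forage and higher on grain.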

How the data were processed

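Per the file headers, the authors deposited for each library a raw read count per mature miRNA name, an expected count that splits multiply matching reads between names, and RPM values, which served here only for read totals. The RPM of assigned reads exceeds its nominal total, because a read is counted under several names, and was treated as a score of the authors. A deposited table of the series holds a normalized signal for 673 names, from which 100% of values became whole reads within 0.01 reads; edgeR on these called 0 of 559 names. bcl2fastq 2.20 and DESeq2 appear in the submitters' processing notes. For aligner, counter and genome build the sources used here state nothing, so only chromosomes are printed. Per the labels' protocols, RNA came from the NucleoSpin miRNA kit and libraries from the NETflex Small RNA-Seq kit.

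Names overlapping by at least 15 nt on 1 strand, or bovine and human names of 1 miRNA with totals within 5%, were merged, and the name with the highest total was used. Raw counts were filtered with filterByExpr, scaled by TMM and tested with edgeR 4.0.16 (R 4.3.3) in a model with 4 group means over all 18 libraries. Library measures were compared by exact permutation tests, two-sided. Alternatives were DESeq2 1.42.0, limma 3.58.1, other scalings, filters and count columns, forage libraries only, and each forage library left out. Within each arm, same-numbered forage and grain libraries deviated from their group means together (correlations 0.18 to 0.51), and the design text gives the same cows. Members and lists were chosen with earlier results of these data known. Named miRNAs were called miRNAs averaging 10 CPM or more, filled up to 12 per direction by lowest p, the 10 most abundant, up to 3 of each of 24 lists by lowest p, and those of at least 100 CPM whose arms did not overlap. miRNA sequences were not used here.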

Additional observations from a re-analysis of the deposited data

Results flagged for a closer look

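Within an arm, single forage libraries stood far from the rest for 13 of the 182 sets of values examined, where about 1 in 20 is flagged by chance. The sets share their libraries and are not independent, so the 13 are not separate events: 6 came from FD_CON 2 and 4 from FD_PHY 3. FD_CON 2 was far above the other controls for 6 miRNAs: miR-143 (286183 CPM), miR-145 (10602 CPM), miR-30b-5p (4178 CPM), miR-126-5p (3664 CPM), miR-365-3p (3391 CPM) and miR-328 (95.9 CPM). FD_CON 5 was far above for miR-7 (1347 CPM) and miR-2904 (62.4 CPM). Among PHY cows, FD_PHY 3 was far above the others for miR-215 (90.0 CPM) and miR-196b (6.86 CPM) and far below for miR-21-5p (212182 CPM) and let-7i (6338 CPM), and FD_PHY 4 was far above for let-7g (24182 CPM).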

How the results depend on the processing

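The count of 0 miRNAs called on forage was 1 under DESeq2 and 1 with no filter, and 0 to 1 when single libraries were left out (1 without FD_CON 4), each time miR-190a. The other alternatives called 0, and the interaction called 0 under each alternative run; with forage libraries alone it could not be computed. The count of 6 without overlap was 2 with a filter of 10 CPM in 4 libraries and 7 to 21 with 1 library left out, where smaller arms separate more easily. The numbers in the titles did not pair the arms (correlations 0.02, -0.28, 0.23 and 0.02; 1 of 4 correlated best with its own number). With the replicate block on the forage libraries 0 of 440 were called and 43 had an unadjusted p under 0.05. There miR-21-5p was 0.041, miR-221 0.11, miR-24-3p 0.028 and miR-451 -0.033. FD_CON 5 is the only forage library with its number, so in that fit it does not inform the arm difference. With cow as a block the interaction called 0. The alternatives chosen after seeing the data were library totals, recovered reads and the cow block. Over the named miRNAs and list medians 2349 values were counted as the same, and 31 of single miRNAs changed sign. For list medians only a move of more than 1 SD between libraries was counted, which 10 made. Smaller moves of list medians are among the 2349, also some that crossed 0. With library totals miR-149-5p was 0.0075, miR-21-5p 0.086, miR-221 0.063, miR-24-3p 0.090, miR-96 0.089, miR-30a-5p 0.064 and miR-144 0.065. miR-30a-5p was 0.018 with limma-voom quality weights, where miR-451 was -0.0084, and miR-451 was -0.0022 with adjusted counts. With 1 library left out the ranges were -0.11 to 0.26 for miR-215, -0.11 to 0.038 for miR-21-5p, -0.17 to 0.10 for miR-221, -0.12 to 0.027 for miR-24-3p, -0.13 to 0.0038 for miR-96, -0.24 to 0.17 for miR-30a-5p, -0.021 to 0.22 for miR-486, -0.27 to 0.22 for miR-144 and -0.12 to 0.21 for miR-451. Beyond construction (fewer samples or genes), the cause was not tested. Few animals and the scaling limit what can be said of small log2 differences.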
